A study of Mus musculus with 3 samples.

Results

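The genes marked by GFI1B:DAM were described from the authors' deposited list, which held 5327 of the 10565 gene rows that the GFI1B and GFI1 lists held together. All rows of the GFI1B worksheet were taken, so no value chose the members here, and the other 5238 rows belong to the GFI1 list. GFI1B:DAM is the transcription factor GFI1B joined to a bacterial DNA adenine methyltransferase (DAM), and the control was DAM alone. Both were inserted as cDNAs at the doxycycline-inducible Hprt docking site of the mouse embryonic stem cell line AinV18. Embryoid bodies gave FLK1+ cells at day 3.25, and the TIE-2/c-KIT haemogenic endothelium was sorted from them after 2 days in culture. Each group was 1 sample that stands for 2 biological replicates together, from cells derived in vitro from 1 parent line. The replicates are not separate in the files, so values are given without an SD and without tests. Values of the DAM control were not used here. Per the header of the list, its reads had been subtracted before the intervals were called. The number of sequenced reads is unknown, and the sequences below are from RefSeq.

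GFI1B is a zinc-finger repressor of blood cells. Its amino-terminal SNAG domain binds the histone demethylase LSD1 and the CoREST scaffold, which remove activating methyl marks from histone H3. Together with its relative GFI1 it shuts off endothelial genes when blood cells emerge from haemogenic endothelium. DAM adds a methyl group to adenine in the sequence GATC, so a fusion marks GATC sites near the places it visits, and the enzyme DpnI cuts only the methylated sites. The marks show where the fusion had been and not what a gene's RNA did, so the labelled cell type could not be checked by marker expression. The list held no row for Gfi1b, Gfi1 or Hprt, and an unlisted gene is not thereby shown to be free of marks. Kdm1a, which encodes LSD1, was listed at 43.9 reads per kb.

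MicroRNAs of the list are shown by their mature sequences because their seeds define which of them belong to 1 family. The list held 74 genes of biotype miRNA, of which 18 carried a Mir symbol and 16 could be paired with a mature sequence in the RefSeq table. Of the 1228 miRNA genes in RefSeq 1.38% were listed, which counts only the 17 whose symbol matched. The capitals mark the seed, bases 2 to 8, which pairs with target RNAs.
miR-29a-3p: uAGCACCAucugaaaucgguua
miR-29b-3p: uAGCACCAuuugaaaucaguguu
let-7a-5p: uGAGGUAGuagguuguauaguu
miR-31-5p: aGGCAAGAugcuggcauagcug
miR-221-3p: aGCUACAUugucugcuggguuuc
miR-290a-3p: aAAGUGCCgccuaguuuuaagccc
miR-802-5p: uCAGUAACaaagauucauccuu
Mir29a and Mir29b-1 are neighbours on chromosome 6 with the same seed, AGCACCA, and the 29 mature forms of the 16 genes had 28 seeds, so no other seed was shared.
Mir802 was the strongest of the Mir genes at 377 reads per kb (283 reads in 1 interval, mm9 chr16:93375167-93375917), and the median of the 18 was 51.6. Mir29a stood at 58.6 reads per kb (44 reads) and Mir29b-1 at 30.3 (47 reads), each in an interval listed under no other gene. The miR-29 family is known for targeting collagen and other matrix transcripts. Mirlet7a-1, of the let-7 family that restrains growth and developmental timing, had 48.8 reads per kb. Mir31 had 66.1 and Mir221 35.3 reads per kb. Mir290, of the cluster that is abundant in embryonic stem cells, had the lowest value of the Mir genes at 30.2. Mir145, a microRNA of smooth muscle, was listed at 56.6 reads per kb and Mir99b at 42.2.

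The promoters of the 4 strongest protein-coding genes with an interval of their own and a RefSeq promoter are shown for the GATC sites, in capitals, at which DAM can act. Each runs from 250 bases before to 50 bases after the start of the gene, on GRCm38.p6. The intervals are on mm9 and were not placed on these promoters.
Apol7a, chr15:77399061-77399360, strand minus: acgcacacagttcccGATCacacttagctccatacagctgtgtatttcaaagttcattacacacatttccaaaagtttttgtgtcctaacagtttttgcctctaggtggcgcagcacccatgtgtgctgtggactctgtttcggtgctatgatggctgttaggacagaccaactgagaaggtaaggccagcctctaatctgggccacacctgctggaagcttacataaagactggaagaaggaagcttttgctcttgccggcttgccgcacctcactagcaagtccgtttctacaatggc
Osbpl7, chr11:97050570-97050869, strand plus: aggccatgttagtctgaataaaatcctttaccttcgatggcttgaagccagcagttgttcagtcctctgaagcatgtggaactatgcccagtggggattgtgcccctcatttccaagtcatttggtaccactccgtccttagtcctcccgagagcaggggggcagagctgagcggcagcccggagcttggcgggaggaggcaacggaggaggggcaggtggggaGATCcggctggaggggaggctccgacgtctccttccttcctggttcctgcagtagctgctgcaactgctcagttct
Eps15, chr4:109342806-109343105, strand plus: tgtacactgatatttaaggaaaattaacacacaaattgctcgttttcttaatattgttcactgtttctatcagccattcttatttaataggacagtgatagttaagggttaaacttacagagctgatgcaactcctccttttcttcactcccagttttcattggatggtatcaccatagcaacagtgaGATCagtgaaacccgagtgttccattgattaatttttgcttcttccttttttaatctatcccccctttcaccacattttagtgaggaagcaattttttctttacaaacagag
Nxt1, chr2:148672365-148672664, strand plus: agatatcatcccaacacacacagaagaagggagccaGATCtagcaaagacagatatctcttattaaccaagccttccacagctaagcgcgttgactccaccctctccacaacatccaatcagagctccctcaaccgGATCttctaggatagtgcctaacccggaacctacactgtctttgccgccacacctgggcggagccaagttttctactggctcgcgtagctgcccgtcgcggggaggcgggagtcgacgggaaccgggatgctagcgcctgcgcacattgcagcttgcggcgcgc
Nxt1 held 2 GATC sites and each of Apol7a, Osbpl7 and Eps15 held 1. Among protein-coding genes with a promoter in the table, 44.1% of 3314 listed genes held GATC there, against 47.6% of 14178 genes not listed and 46.9% of all 17492. The core of the GFI1B recognition sequence, AATC on either strand, was in 65.7% of listed promoters, against 73.02% of the others and 71.6% of all. Matches of AATC and GATC cannot share a base. AATCAC on either strand, a longer part of the recognition sequence, was in 8.12%, against 10.5% of the others and 10.1% of all. Listed promoters were richer in G and C bases, with a median of 61.3% against 55.3% of the others. A match is a description of letters and not a bound site.

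Of the 21900 protein-coding genes of RefSeq, 4178 were listed for GFI1B:DAM, which is 19.1% (exact 95% binomial interval 18.6 to 19.6%, covering counting of genes only). This share is the background for every list below. It was 17.7% where a gene needed an interval of its own and 9.53% for the stronger 50% of the list, and 9.45% of all RefSeq genes were listed. The share climbed with gene length: it was 2.60% in decile 1, the shortest genes (median 0.942 kb), 16.3% in decile 6 (20.6 kb) and 50.5% in decile 10 (185 kb). Reads per kb of interval did not follow length in the same way. Listed genes had medians of 57.4 reads per kb in decile 1, 50.2 in decile 5 and 53.2 in decile 10. The median number of intervals per listed gene was 1 in deciles 1 to 9 and 2 in decile 10. Each list below is therefore set beside the share listed in the length decile that holds the list's median gene.

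**Figure D1:**
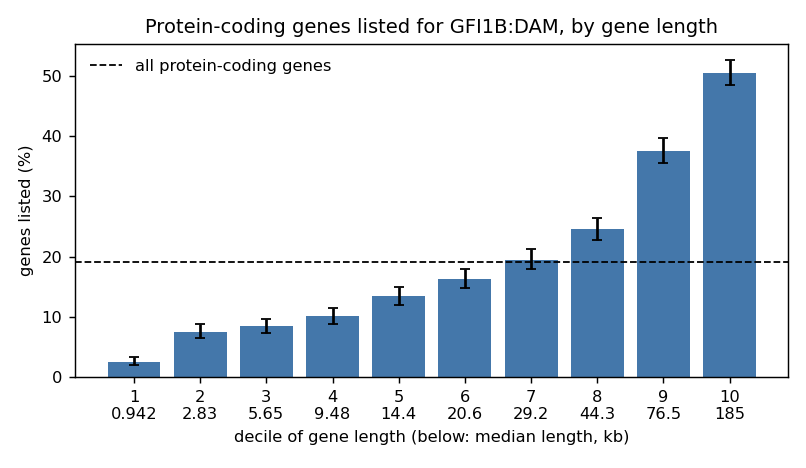
Percent of RefSeq protein-coding genes listed for GFI1B:DAM (vertical axis) in 10 equal bins of gene length (horizontal axis, with the median length in kb). Bars start at 0, error bars are exact 95% binomial intervals over genes, and the dashed line is the 19.1% of all protein-coding genes. The share climbs from 2.60% to 50.5%.

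The 5327 genes rested on 7595 distinct intervals that covered 11815 kb. Median reads per kb of interval were 53.6, and the quartiles were 41.2 and 73.4. The range ran from 12.9 to 5622, and 559 genes (10.5%) exceeded 100 reads per kb and 90 exceeded 200. All interval widths were multiples of 50 bp plus 1, so position is resolved to 50 bp at best. Of the intervals 7214 (94.98%) were listed under 1 gene and 349 under 2. Intervals shared with another gene were the only ones for 528 genes (9.91%).

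The highest reads per kb were those of the pseudogene AY036118, at 5622 reads per kb and 15471 reads, 1.99% of the reads summed over distinct sets of intervals. The GFI1 list held this pseudogene too. The aligner is not given, so how reads that fit several places were counted is unknown here. Second by reads per kb was the lincRNA gene 2010300F17Rik at 2426, from 1943 reads in 1 interval of 801 bp (mm9 chr11:96597423-96598223). This interval was also listed under Skap1, an adaptor of immune receptor signalling, which had 2382 reads over 3 intervals and 501 reads per kb. A different gene on the same chromosome, Osbpl7, encoding an oxysterol-binding protein, stood at 682 reads per kb further along (chr11:96934273-96935023). Next came 1810011O10Rik, at 995 reads per kb by an interval shared with the lincRNA gene Gm16625.

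Protein-coding genes with an interval of their own were led by Apol7a, an apolipoprotein L gene, at 811 reads per kb (chr15:77198000-77199100). Behind it and Osbpl7 stood Eps15, an adaptor of clathrin-mediated endocytosis, at 644 (chr4:108953764-108954664). Nxt1, which encodes a partner of the mRNA export receptor, had 622 reads per kb, and Tial1, an RNA-binding protein of stress granules, had 606. Setbp1, which encodes a SET-binding protein, had 572, and Gpx5, an epididymal glutathione peroxidase gene, had 565. Alyref2, B930036N10Rik and a U5 small nuclear RNA gene shared a single interval of 1701 bp and its 633 reads per kb. Apart from the 2 intervals of AY036118 and the 3 of Skap1, each of the 15 strongest genes had 1 interval of 751 to 1701 bp. The median width of all intervals was 1351 bp. Reads per kb divides by width, so the ranking itself depends on it. In the GFI1 list AY036118 stood at 4140, Eps15 at 92.2 and Skap1 at 72.4 reads per kb, on a scale that is not set between the lists. The others of these 15 genes had no row in the GFI1 list. The share of the whole GFI1B list without a GFI1 row was not computed, so this is not shown to be particular to the strongest genes. A missing row does not show that a gene was free of GFI1:DAM marks.

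**Figure D2:**
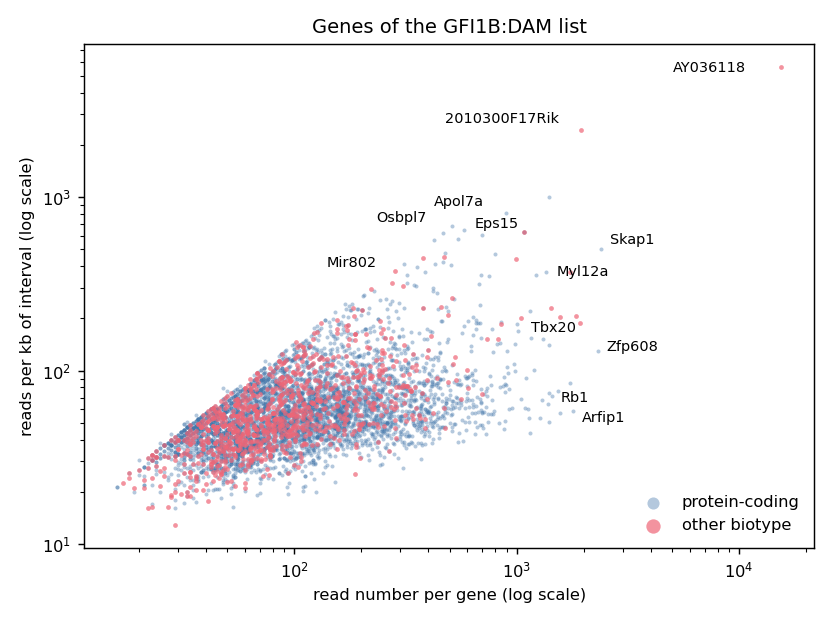
Read number per gene (horizontal, log scale) against reads per kb of interval (vertical, log scale) for all 5327 genes of the GFI1B:DAM list, protein-coding genes in blue and other biotypes in red. AY036118 stands alone at 15471 reads and 5622 reads per kb, while Zfp608, Rb1 and Arfip1 have many reads at moderate reads per kb.

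By read number the order was different, because wide and numerous intervals gather reads. After AY036118 and Skap1 came Zfp608, a zinc-finger regulator gene, with 2309 reads over 6 intervals and 130 reads per kb. One of its intervals measured 8951 bp and was also listed under the lincRNA genes Gm4221 (1935 reads) and Gm17270 (1842 reads). Arfip1, which encodes an arfaptin of the Golgi, had 1785 reads over 18 intervals at 58.6 reads per kb, and 8 of the intervals were its own. Fgfr2, a fibroblast growth factor receptor gene, had 1733 reads over 16 intervals that spanned 2878 kb, and 4 of them were its own. Rere, an atrophin corepressor gene, had 1569 over 12 intervals, all its own. Rb1, the retinoblastoma gene that holds back cell division, had 1436 reads over 8 intervals. Frmd4a (1400 reads over 12 intervals), which encodes a cell polarity scaffold, and Rbms1 (1394 over 11), an RNA-binding protein gene, had intervals listed under no other gene. Of the 15 strongest genes by reads per kb 3 were also among the 15 with most reads, namely AY036118, Skap1 and 2010300F17Rik.

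The widest single intervals were listed under genes of differing roles. The 8951 bp interval of Zfp608, Gm4221 and Gm17270 was given above. Rb1 and Lpar6, a lysophosphatidic acid receptor gene that lies inside Rb1, shared an interval of 9901 bp (mm9 chr14:73635713-73645613). For Lpar6 it gave 982 reads at 99.2 reads per kb. Tbx20, a T-box factor of the heart, had 1 interval of the same width (1391 reads, 140 reads per kb). Aff1, which encodes a subunit of the super elongation complex, had 689 reads in a single interval of 8751 bp. Socs6, an inhibitor of cytokine signalling, had an interval of 8551 bp among 4. Gpr124, a receptor needed for brain vessels, had one of 7851 bp at 42.3 reads per kb. S1pr1, the sphingosine 1-phosphate receptor of endothelium, had one of 7801 bp (711 reads, 73.3 reads per kb). Rbms1 followed with 7251 bp, Fam113b with 7201 bp and Dlgap1 with 7051 bp, the last shared with the lincRNA gene Gm16952.

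A single interval was listed for 3832 genes (71.9%), 2 for 933 (17.5%), and 10 or more for 14. Besides Arfip1, Fgfr2, Rere, Frmd4a and Rbms1, the genes with most intervals were Etl4 (12), the lymphoid repressor gene Bach2 (12), Auts2 (11, over 1035 kb) and Utrn (11). Auts2 encodes a developmental regulator that acts with Polycomb proteins, and Utrn encodes the dystrophin relative utrophin. Gm20388, with 19 intervals, spans several genes, and 11 of its intervals were its own. These 10 genes stood between 43.7 and 84.9 reads per kb, and none of them exceeded 100.

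Of the 29 process lists 26 exceeded the 19.1% of all protein-coding genes, and 24 exceeded the share of their own length decile. Among 48 gene families named by symbol the counts were 36 and 28. The decile share can be a low reference where members differ in length, as shares climb steeply among long genes. All protein-coding genes together, at 19.1%, exceed the 13.5% of decile 5 and the 16.3% of decile 6, which meet at their median. Exceeding the decile share is therefore not by itself an excess beyond gene length. The lists hold well-studied genes, and neither they nor the families were drawn at random. No test of a list was made. The exact binomial intervals below take genes as independent draws and are descriptions only.

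Genes of the cytoskeleton and of cell adhesion were listed often. Of 38 actin and focal adhesion genes 21 were listed (55.3%, against 24.6% in their length decile), with a median of 60.4 reads per kb against 53.6 for the whole list. Ptk2, the gene of focal adhesion kinase, had 143 reads per kb over 4 intervals, and Tln2, a talin that links integrins to actin, had 105 in 1 interval. The actin genes Actg1 and Actb stood at 124 and 103, Actg1 by an interval shared with a small RNA gene. Actn1, an actin cross-linker, had 92.99 reads per kb. Of the cytoskeletal small GTPases and their effectors 18 of 40 were listed (45%, against 24.6%). They were led by Iqgap2 (127 reads per kb, 5 intervals), a scaffold of CDC42 and RAC1, and the kinase gene Rock1 (98.9), a driver of actomyosin contraction. Exchange factors and activating proteins of these GTPases are long genes, and their shares lay near the 50.5% of their decile, with 32 of 63 (50.8%) and 21 of 44 (47.7%). Tiam1, a RAC1 activator, stood at 175 reads per kb, Arhgef3 at 154, Vav1 at 137 and Arhgap32 at 121. Myosin heavy chains were listed 8 of 34 times (23.5%, against 37.6%) and kinesins 10 of 38 times (26.3%, against 24.6%). Genes with a Myl symbol were listed 2 of 11 times (18.2%, against 10.1%). Myl12a, a regulatory light chain of non-muscle myosin, had 369 reads per kb by an interval shared with Gm16724, and Mylk, the kinase of that light chain, had 349 over 2 intervals. Myl12a and Mylk belong to no list and were named after their values were seen. Among LIM-domain genes 11 of 30 were listed (36.7%, against 24.6%), and among annexins, which bind membranes in the presence of calcium, 6 of 12 (50%, against 24.6%). The annexin genes had a median of 75.05 reads per kb, with Anxa5 at 147. For LIM-domain genes and for annexins the exact binomial interval contained the decile share of 24.6%.

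PI3K signalling had the highest share of the 29 process lists. Of 39 genes of PI3K, AKT and mTOR signalling 23 were listed (58.97%, against 37.6% in their length decile), all with an interval of their own. Their values were moderate, with a median of 50.2 reads per kb. Eif4ebp2, a brake on translation under mTOR control, stood at 86.8, Pik3cb at 78.5 over 6 intervals and Deptor, an mTOR inhibitor, at 77.4. Of the RAS and MAPK cascade 19 of 38 were listed (50%, against 37.6%). The exact binomial interval over these genes, 33.4 to 66.6%, contained the decile share. Ksr1, a scaffold that brings RAF and MEK together, led with 246 reads per kb, followed by Map2k1, the gene of MEK1 (89.9), and Rasgrp1 (78.7), a calcium-responsive RAS activator. Map2k1 also led the family of MAP kinases and their kinases, of which 12 of 43 were listed (27.9%, against 24.6%).

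Second-messenger lists stood above their length decile, while the enzyme families within them did not all do so. The exact binomial interval began at 37.9% for the cAMP list, just above the 37.6% of its decile. For the calcium list it was 35.5 to 69.6% and contained the decile share. Of 34 cAMP and PKA genes 19 were listed (55.9%, against 37.6%). Akap12, which encodes a scaffold that tethers PKA, had 233 reads per kb, Adcy7, an adenylate cyclase gene, 79.9 and Prkacb, a PKA catalytic subunit gene, 77.1. Pde4d, a cAMP phosphodiesterase gene, had 8 intervals at 68.7. Adenylate cyclases as a family were listed 2 of 10 times (20%, against 37.6%), phosphodiesterases 9 of 22 times (40.9%, against 50.5%), phospholipases C 5 of 15 times (33.3%, against 37.6%) and diacylglycerol kinases 5 of 10 times (50%, against 50.5%). Of 36 genes of calcium entry and calcineurin-NFAT signalling 19 were listed (52.8%, against 37.6%), led by Camk1d (89.4) and Ppp3cc, a calcineurin catalytic subunit gene (88.3). Voltage-gated calcium channel genes, long as they are, were listed 5 of 26 times (19.2%, against 37.6%). Potassium channel genes were listed 23 of 92 times (25%, against 19.5%). Kcnn3, a calcium-activated potassium channel of endothelium, stood at 316 reads per kb.

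Shares of the developmental pathways below were above those of their length deciles, but each exact binomial interval over genes contained the decile share. The intervals were 28.3 to 65.7% for Hippo, 6.81 to 49.9% for Hedgehog and 14.9 to 53.5% for retinoic acid genes. The shares were not tested against each other. Of 30 Hippo pathway genes 14 were listed (46.7%, against 37.6%). Lats2, a kinase that restrains YAP and TAZ, had 111 reads per kb, Wwtr1, the gene of TAZ, 94.1 and Yap1 44.2. Tead1, the DNA-binding partner of YAP, had 84.5. Hedgehog genes were listed 4 of 17 times (23.5%, against 19.5%), with the receptor gene Ptch1 at 84.9 and Gli2 at 30.9 reads per kb. Retinoic acid genes were listed 8 of 25 times (32%, against 24.6%). They included the receptor gene Rarb (75.6) and the retinoic acid-degrading enzyme gene Cyp26a1 (69.1).

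Shares of the transcription factor groups and of the circadian clock list were above those of their length deciles. Their median genes ran from 3.36 to 34.3 kb. The exact binomial interval contained the decile share for T-box, immediate-early and AP-1, forkhead and nuclear receptor genes. It lay above that share for the ID and E protein list, STAT and IRF genes, Zfp genes and the circadian clock. This was not a test, and the decile share can run low for lists of mixed length. Of a list of ID proteins, E proteins and related helix-loop-helix factors such as Hand2, which dimerise with one another, 6 of 14 were listed (42.9%, against 7.58%). That decile holds the list's median gene (3.36 kb), and members of other lengths were not set beside their own deciles. The E protein genes Tcf12 and Tcf4 stood at 138 reads per kb over 3 intervals and 61.7 over 7. The inhibitors Id3, Id1 and Id2 stood at 77.3, 33.5 and 30.2, and Hand2, a factor of the heart, at 27.03. STAT and IRF genes were listed 7 of 16 times (43.8%, against 16.3%), with Irf1, an interferon-induced activator, at 138 and Irf3, an antiviral factor, at 120 by a shared interval. T-box genes were listed 5 of 17 times (29.4%, against 16.3%), with Tbx20 at 140 and the mesoderm factor gene Eomes at 59.9. Immediate-early and AP-1 genes were listed 5 of 24 times (20.8%, against 8.49%), with Mafk at 175 and Klf6 at 65.1. Fos, Jun and Egr1 were not listed. Forkhead genes were listed 5 of 44 times (11.4%, against 8.49%) and nuclear receptor genes 5 of 25 times (20%, against 16.3%). Genes named Zfp were listed 81 of 367 times (22.1%, against 16.3%). Zfp609, a relative of Zfp608, led them at 467 reads per kb, followed by Zfp341 at 356. The circadian clock gave 11 of 24 (45.8%, against 19.5%), with its activator genes Clock at 142 and Arntl at 82.1 and its repressor gene Nr1d1 at 75.4.

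Shares of immune and cytokine genes ran on both sides of those of their length deciles. The exact binomial interval contained the decile share for each group here except the interferon response genes, where it lay above. JAK-STAT and cytokine receptor genes were listed 11 of 36 times (30.6%, against 19.5%). Ifngr2, a subunit of the interferon gamma receptor, stood at 165 reads per kb and Stat3 at 55.2. Genes of NF-kB and TNF signalling were listed 6 of 31 times (19.4%, against 19.5%), led by the adaptor gene Traf5 (123), and interferon response genes 8 of 24 times (33.3%, against 13.5%). Interleukin receptors were listed 8 of 41 times (19.5%, against 19.5%). Chemokine and chemokine receptor genes were listed 3 of 56 times (5.36%, against 8.49%). Of the TNF superfamily and receptors 9 of 31 were listed (29.03%, against 16.3%), with Tnfrsf14 at 228 reads per kb.

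Genes of RNA handling and translation, which every cell uses, were listed above the shares of their length deciles. Histone and DNA repair genes were too, while proteasome genes were listed below theirs. The exact binomial interval lay above the decile share for splicing genes, translation factors, histone genes and mitochondrial ribosomal protein genes. For the last of these its lower end was 10.6%, against 10.1%. The interval contained the decile share for aminoacyl-tRNA synthetases, proteasome genes and DNA repair genes. None of this was a test. Splicing genes were listed 15 of 38 times (39.5%, against 16.3%). Qk, an RNA-binding regulator of splicing in vessels, stood at 97.0 reads per kb and Srsf3 at 84.6. Translation factors were listed 11 of 27 times (40.7%, against 13.5%), with a median of 66.2 reads per kb and Eif1, a start-codon selector, at 108. Aminoacyl-tRNA synthetases were listed 10 of 33 times (30.3%, against 19.5%), with a median of 74.97 reads per kb. The strongest were genes of mitochondrial forms, Mars2 (127), Tars2 (124) and Lars2 (96.0). Replication-dependent histone genes, which are among the shortest protein-coding genes, were listed 8 of 63 times (12.7%, against 2.60%). Each had a single interval of its own, and Hist1h2bh led with 270 reads per kb. Mitochondrial ribosomal protein genes were listed 14 of 75 times (18.7%, against 10.1%) and proteasome genes 4 of 39 times (10.3%, against 13.5%). DNA repair and replication genes were listed 11 of 37 times (29.7%, against 24.6%). Brca2, a gene of homologous recombination, stood at 168.

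Metabolic lists were mixed. The exact binomial interval contained the decile share for each group here except cytochromes P450, where it lay below. Hypoxia and glycolysis genes were listed 10 of 33 times (30.3%, against 19.5%). Vhl, which targets hypoxia-inducible factors for degradation, stood at 228 reads per kb, and the pyruvate kinase gene Pkm2 at 129. Cholesterol and fatty acid genes were listed 9 of 39 times (23.1%, against 24.6%), led by Elovl5 (116). Iron and haem genes were listed 8 of 24 times (33.3%, against 16.3%), with the cytosolic aconitase gene Aco1, an iron sensor, at 101. Apoptosis and p53 genes were listed 9 of 33 times (27.3%, against 16.3%), with Casp2 at 132 and the survival genes Mcl1 and Bcl2 at 84.1 and 76.96. Solute carriers were listed 68 of 387 times (17.6%, against 19.5%) and cytochromes P450 7 of 98 times (7.14%, against 16.3%).

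Secretory and matrix genes were listed as follows. The exact binomial interval contained the decile share for each group here except the endocytosis list and tetraspanins, where it lay above. Endocytosis and vesicle traffic genes numbered 18 of 39 (46.2%, against 24.6%), with Dnm2, the dynamin that pinches off vesicles, at 190 reads per kb behind Eps15. Matrix genes numbered 15 of 39 (38.5%, against 24.6%). Col3a1, a fibrillar collagen gene, led with 259 reads per kb, ahead of the fibrillin gene Fbn2 (88.7) and of Fn1, the fibronectin gene (62.2). Proteoglycan and hyaluronan genes numbered 10 of 29 (34.5%, against 19.5%), with no value over the 57.5 reads per kb of Sdc4. Heparan sulfate enzymes numbered 10 of 21 (47.6%, against 37.6%), and Ext1, a polymerase of the chain, had 9 intervals at 46.7. Tetraspanins numbered 11 of 27 (40.7%, against 19.5%), with Cd81 at 155 and Cd9 at 91.7. ADAMTS proteases numbered 7 of 24 (29.2%, against 37.6%), with Adamts4 at 204, while matrix metalloproteinases numbered 2 of 23 (8.70%, against 13.5%).

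**Figure D3:**
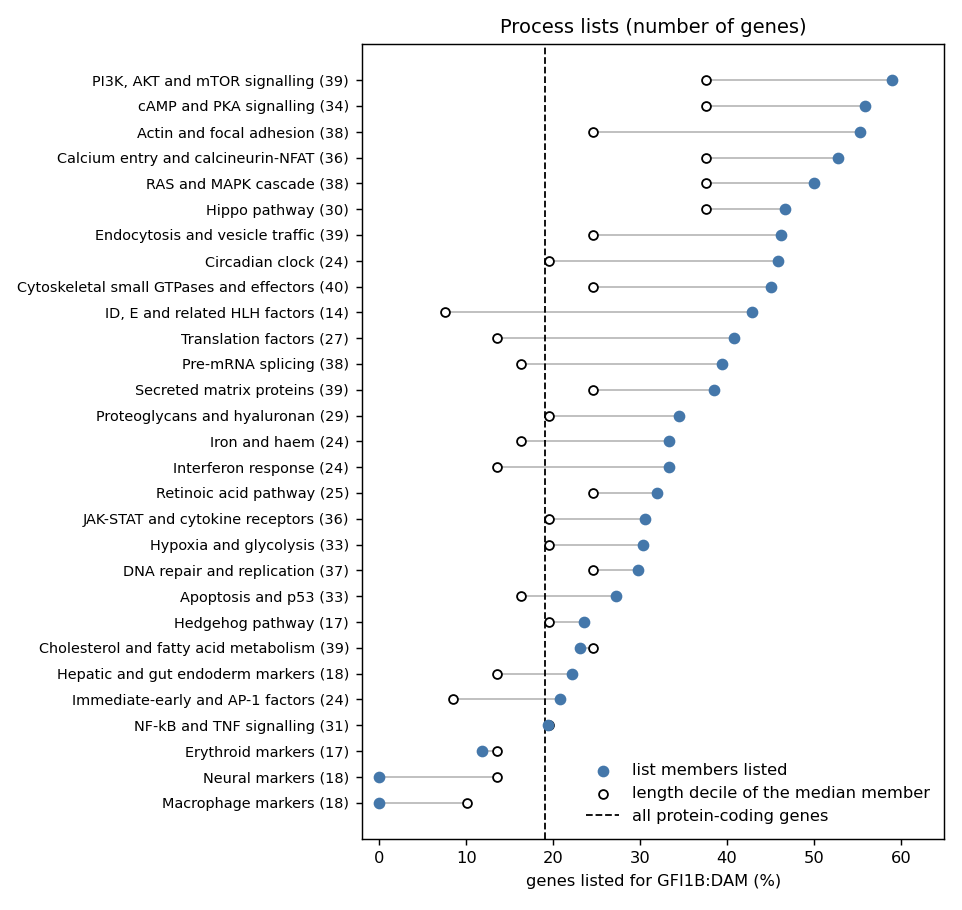
Percent of genes listed for GFI1B:DAM (horizontal axis) in the 29 process lists (rows, with the number of genes). Filled points are the list, open points the share of protein-coding genes in the length decile of the list's median gene, and the dashed line the 19.1% of all protein-coding genes. Signalling and actin lists lie farthest right, and no macrophage or neural marker was listed.

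Of 18 macrophage markers and 18 neural markers none was listed, where shares of 10.1% and 13.5% held in their length deciles. A count of 0 of 18 has an exact 95% upper bound of 18.5%. Erythroid markers were listed 2 of 17 times (11.8%, against 13.5%), and these were Tfrc (55.9 reads per kb) and Alas2 (22.1, by a shared interval). Endoderm markers were listed 4 of 18 times (22.2%, against 13.5%), namely Sox17 (92.7), Gata6 (59.7), Gata4 (52.8) and Foxa1 (30.8). Sox17, Gata4 and Gata6 are also genes of endothelium or heart. As these are marks on DNA, the lists do not measure how many cells of another type were in the sort.

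When all 257 groups of at least 10 protein-coding genes with the same symbol stem were ranked, the highest 10 shares belonged to groups of long genes, with medians in deciles 8 to 10. Of the Dock genes, exchange factors for RAC1 and CDC42, 8 of 11 were listed (72.7%, against 50.5%), with Dock4 in 8 intervals. March ubiquitin ligases followed with 7 of 11 (63.6%, against 37.6%), and Arid genes, several of them subunits of BAF chromatin remodellers, with 6 of 10 (60%, against 37.6%). Arid3b stood at 158 and Arid1a at 85.5 reads per kb. Protocadherins named Pcdh had 7 of 12 (58.3%, against 37.6%), genes named Pik 9 of 16 (56.2%, against 37.6%), and Cnot genes of the CCR4-NOT deadenylase 6 of 11 (54.5%, against 24.6%), with Cnot2 at 180 reads per kb. Anxa genes, Camk kinases (5 of 10, 50%, against 37.6%) and Ube ubiquitin enzymes (20 of 42, 47.6%, against 24.6%) followed. Ano chloride channels and scramblases, with 5 of 10 (50%), were at the 50.5% of their decile. These 10 groups were picked by the share itself, and most are small. For all of them except Ube the exact binomial interval over genes contained the decile share, as with 39.0 to 94.0% for Dock. No gene was listed in 26 groups. The largest of these were Rhox homeobox genes (33), Defa defensins (28), Klk kallikreins (26), Mup major urinary proteins (22), the clustered protocadherins Pcdhb (22), Lce epidermal genes (21), Ifi genes (19), Wfdc genes (18), Akr reductases (17) and the Nat and Esp groups (15 each). Most are short genes, in whose length deciles few genes were listed: 2.60% for Defa, 7.58% for Mup, Pcdhb and Lce, and 8.49% for Rhox, Klk, Wfdc, Nat and Esp. The shares were 13.5% for Akr and 16.3% for Ifi. Among olfactory receptors named Olfr 25 of 1110 were listed (2.25%, against 2.60% in their length decile).

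Non-coding genes made up the rest of the list. Protein-coding genes numbered 4346 (81.6%), lincRNA genes 344 (6.46%), pseudogenes 216 (4.05%) and antisense genes 101 (1.90%). Of RefSeq genes outside protein-coding ones, 2.51% of lncRNA, 1.84% of pseudogene and 0.224% of snoRNA genes were listed. These shares count only rows whose symbol matched RefSeq. That held for 3 snoRNA genes of RefSeq, while the list had 56 rows of biotype snoRNA. Medians of reads per kb were close, at 53.6 for protein-coding, 56.4 for lincRNA, 48.8 for pseudogenes and 49.97 for antisense genes. The biotypes differed in how they were named. Only 7.80% of protein-coding genes rested on shared intervals alone, against 20.1% of lincRNA genes and 62.4% of antisense genes. 2410019O14Rik was the strongest lincRNA gene with an interval of its own, at 441 reads per kb (992 reads, 2251 bp). Gm9530 had 1429 reads over 3 intervals of its own.

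Chromosome X stood apart from every autosome in reads per kb. Its 241 genes had a median of 33.6 reads per kb, against 54.6 over the 5085 genes of the autosomes, where the medians ran from 46.65 on chromosome 7 to 63.04 on chromosome 13. Of the X genes 34 (14.1%) lay above the median of the whole list, against 51.7% of the autosomal ones. Interval widths did not differ in that way, with medians of 1401 bp on X and 1351 bp on the autosomes. In the GFI1 list the medians were 36.2 on X and 49.4 on the autosomes. The share of protein-coding genes listed was 16.4% on X (158 of 966), within the autosomal range of 14.04% on chromosome 7 to 28.4% on chromosome 12. The labels do not give the sex or karyotype of the line, so how many copies of X these cells carried is unknown here, and its part in these values was not tested. Slitrk4 was the strongest X gene at 118 reads per kb. Chromosome Y had 1 listed gene, the deubiquitinase gene Usp9y, at 79.7 reads per kb over 2 intervals.

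**Figure D4:**
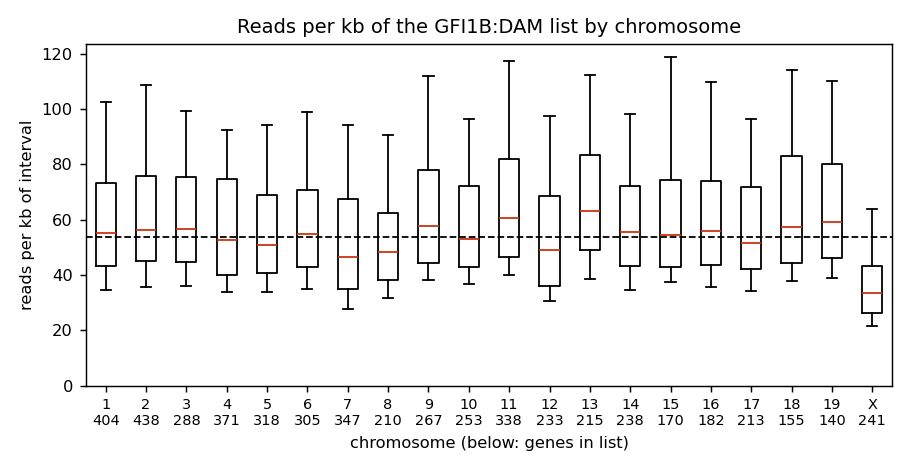
Reads per kb of interval (vertical axis, from 0) of the genes of the GFI1B:DAM list by chromosome (horizontal axis, with the number of genes). Boxes span the quartiles with the median in red, whiskers reach from the 10th to the 90th percentile, and the dashed line is the median of all genes, 53.6. Chromosome X sits lowest, with a median of 33.6.

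Intervals were uneven along chromosomes. Over 1869 windows of 1 Mb that held any interval the median was 3, while 118 windows (6.31%) held 10 or more and contained 18.5% of all intervals. The densest were on chromosome 2 from 84 to 85 Mb and on chromosome 4 from 32 to 33 Mb (mm9), with 20 intervals each. The window on chromosome 2 held several genes of vessels. They were Aplnr, the apelin receptor gene (483 reads over 3 intervals, 64.8 reads per kb), Calcrl, a receptor for adrenomedullin (47.2), Tfpi, an inhibitor of coagulation (62.95), Serping1, the C1 inhibitor gene (51.6), and Ctnnd1, encoding the p120 catenin that stabilises VE-cadherin (54.97 over 5 intervals). Slc43a1 (78.1) and Ypel4 (92.8) lay there as well. The window on chromosome 4 belonged mostly to Bach2, with Mdn1, a ribosome assembly gene (67.03), beside it. Windows with 18 intervals lay on chromosome 14 at 32 to 33 Mb, with Ankrd28 (144) and Ncoa4 (133), an autophagy receptor for ferritin, on chromosome 14 at 73 to 74 Mb around Rb1, and on chromosome 16 at 45 to 46 Mb with Phldb2 (7 intervals) and Cd200 (110).

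Closer grouping was seen where intervals followed one another within 20 kb. There were 264 such clusters of at least 3 intervals, which held 899 intervals (11.8%), with a median span of 27.03 kb. The number depends on the gap allowed, with 614 clusters at 50 kb and 91 at 10 kb. Clusters of 7 lay at Rb1 (chr14:73599063-73671063, 25.9% of the span covered) and at Rbms1 (chr2:60707872-60766772, 35.9% covered). Clusters of 6 lay at 5 loci. Lin28b, which encodes the RNA-binding protein that blocks let-7 maturation, had 1191 reads and 100 reads per kb (chr10:45130721-45211471). Rbpms, an RNA-binding protein gene, had 71.7 reads per kb (chr8:35008975-35054825). Grb10, an imprinted adaptor that restrains growth, lay with Ddc and SCARNA4 (chr11:11781023-11863073), at 43.8 reads per kb. Mir29a and Mir29b-1 lay with the lincRNA genes Gm13833 and Gm13834 (chr6:30996255-31066105). Ptprb and its neighbour Ptprr, both receptor tyrosine phosphatase genes, formed another (chr10:115681571-115729271), in which Ptprr had 47.9 reads per kb and Ptprb had the higher value at 190.

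**Figure D5:**
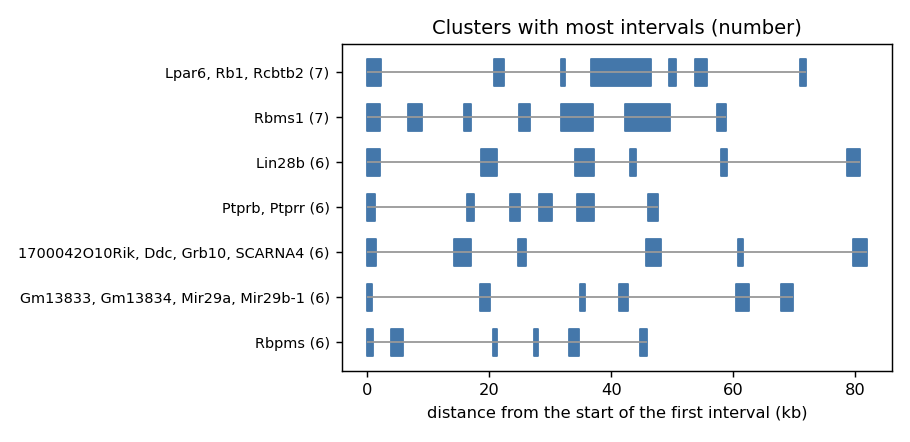
Positions of intervals (blue boxes, to scale) in the 7 clusters with most intervals, as distance in kb from the start of the first interval (horizontal axis). Rows give the genes listed there and the number of intervals. The widest boxes are the 9901 bp interval at Rb1 and Lpar6 and the 7251 bp interval at Rbms1.

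Listed genes also followed one another. Along the order of RefSeq protein-coding genes, 2147 listed genes (51.4%) had a listed neighbour, and 38 runs held 5 or more genes. With 19.1% of all protein-coding genes listed, some neighbours are listed together in any order, and no share for an even spread was computed. The longest run, of 13 genes on chromosome 1, ran from Ngef to the Ugt1a genes. The longest run held 6 genes in the order of all RefSeq genes and 8 where each gene needed an interval of its own. Only 7 of its genes had an interval of their own, since 6 Ugt1a genes, alternative first exons of a detoxifying enzyme, shared 2 or 3 intervals, as Ugt1a7c did at 49.98 and Ugt1a10 at 55.3 reads per kb. Inpp5d, the gene of the lipid phosphatase SHIP1, had 5 intervals in it at 69.7. The next run, of 8 genes on chromosome 1, rested on 10 intervals, with at least 1 of its own for each gene. It held the laminin gene Lamc1 (103) and the RNA helicase gene Dhx9 (105). Runs of 7 lay on chromosome 13 (from Pfkp to Larp4b), chromosome 14 (Sh3bp5 to Ankrd28), chromosome 15 (Basp1 to Ank) and chromosome 18 (Mex3c to Ska1). The run on chromosome 18 included Smad4, the shared SMAD of TGF-beta and BMP signalling, at 45.7 reads per kb over 3 intervals.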

How the data were processed

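DamID was measured in 3 samples (GFI1B:DAM, GFI1:DAM and DAM alone), each 2 biological replicates together per the labels. Per the file headers, BayesPeak and a caller named SS (threshold 0.05) gave the GFI1B list, after lanes were merged and the control's reads taken away. Intervals are on mm9, per the submitters' processing notes. Neither the aligner nor the rule tying intervals to genes is given in the sources used here. The deposited read number was handled as a score because its treatment of control reads is unclear. Reads per kb of interval is a deposited signal with no scaling to depth, which is unknown. It was rebuilt from read number and interval length to within 0.0050.

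The list was assigned by its worksheet name. Symbols were matched by name, synonym and chromosome to RefSeq genes (GRCm38.p6, used for names, lengths and order): 4743 of 5327 rows (89.04%) matched. Python 3.11.15, pandas 2.3.3 and scipy 1.17.1 were used. Counting steps were tested on simulated data. Intervals up to 20 kb apart were joined into clusters of at least 3.

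Members and lists were chosen with earlier results of these data known. Named genes were the 15 strongest by each measure, the 10 with most or widest intervals, up to 4 strongest members per list, those of the densest windows, clusters and runs, and 10 symbol stems at each end. Actn1, Yap1, Pde4d, Fn1, Ext1, Id2, Hand2, Myl12a, Mylk and the unlisted AP-1 genes were named after their values were seen. Promoters on chromosome 18 were left out, and a few genes are not reported here. No set test was made. Alternatives were intervals of a gene's own, the stronger 50% of the list, other backgrounds, gaps and windows. The GFI1 list serves only for values set beside those of GFI1B.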

Additional observations from a re-analysis of the deposited data

How the results depend on the processing

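Values come from pooled replicates at unknown depth and have no error between replicates. No paired analysis was possible because the replicates of a group are not separate in the files, and leaving out a replicate was not possible for the same reason. Protein-coding genes were listed at 19.1%, at 17.7% when an interval of the gene's own was required, at 9.53% in the stronger 50% of the list, and 9.45% of all RefSeq genes were listed. The share of genes with 1 interval was 69.1% among protein-coding genes. Of the 15 strongest genes by reads per kb 3 were among the 15 by read number and 12 among the 15 strongest protein-coding genes. Clusters numbered 614 with a gap of 50 kb, 91 with 10 kb and 28 with at least 5 intervals. The densest window held 16 intervals at 500 kb and 27 at 2 Mb. The longest run held 6 genes in the order of all RefSeq genes and 8 when an interval of the gene's own was required. Of 77 lists and families 62 exceeded the share of all protein-coding genes, 59 with own intervals and 53 in the stronger 50%. Against their length decile, an alternative chosen after seeing the data, 52 did, though that share can be a low reference for lists of mixed length. Median reads per kb stayed between 53.4 and 53.6. The differences in clusters, windows and runs follow from how each alternative is built.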
